A study of Mus musculus with 12 samples.

Results

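Macrophages grown from mouse bone marrow and given HDL before LPS were compared with macrophages given PBS before LPS, by setting 3 arrays of the first against 3 of the second. These are 6 of the 12 arrays of the series, chosen by their titles. A probe was used where its detection p, which marks a signal above background, fell below 0.05 on 3 or more arrays, as 18364 of 45281 probes did. Most deposited signals had lost their decimal mark, which was rebuilt. Macrophages were grown from bone marrow of C57BL/6 mice aged 9 to 16 weeks in medium with 20% L929-conditioned medium, the usual source of macrophage growth factor, for 8 to 9 days. The HDL group received 300 ug/ml HDL for 24 h, was washed, and received 10 ng/ml LPS for 6 h. The labels write this group as nHDL and do not spell out the n. The PBS group received PBS and the same LPS, and no contact time is given for PBS, so contact time and compound cannot be told apart. The other groups, also of 3 arrays each, received PBS without LPS, or 4% cyclodextrin for 4 h, a wash and the same LPS. No label says whether the arrays of a group came from separate animals or cultures, so the p-values speak for the spread among these arrays alone, and that spread may be technical.

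HDL is the lipoprotein that accepts cholesterol from cells, and macrophages hand it over through the transporters ABCA1 and ABCG1. Cells answer to their own sterol content in opposite ways: low sterol releases the SREBP transcription factors, which switch on genes for making cholesterol and fatty acids, and oxidised sterols activate LXR, which switches on cholesterol export and Scd1. LPS, a component of the outer wall of Gram-negative bacteria, acts through TLR4 and induces cytokines, chemokines and interferon-driven genes. HDL is also known to alter the cytokine output of macrophages.

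The share of probes above background was 36.9%, 36.7% and 36.4% on PBS arrays 7, 8 and 9 and 35.8%, 36.0% and 36.2% on HDL arrays 16, 17 and 18. The groups did not overlap (difference -0.699 percentage points, two-sided exact permutation p = 0.10, the smallest that 3 against 3 arrays allow), and the order of the means turned at a stricter detection p of 0.01. Across genes, HDL arrays correlated with each other at r = 0.992 to 0.995, PBS arrays at 0.994 to 0.996, and HDL with PBS arrays at 0.987 to 0.993. All 8 macrophage markers on the array, among them Adgre1, Csf1r, Lyz2 and Spi1, were above background on all 6 arrays, and 0 of them was called. Their summed normalized signal was 79100 to 85300 on the HDL arrays and 86100 to 89200 on the PBS arrays. Of the 8, 3 had a log2 fold change above 0 and 5 below. Cd14 (-0.36 ± 0.14) and Fcgr1 (-0.28 ± 0.15) were lower without overlap between the groups, as 13.8% of all genes were. Both were called higher with LPS than without it in PBS cells (1.16 ± 0.14 and 3.32 ± 0.15). Among markers of other cells, the T and NK cell genes Cd3d, Cd3e, Cd3g, Cd4, Cd8a and Ncr1, the B cell genes Blk, Ms4a1 and Pax5, and the fibroblast genes Col1a1, Col1a2, Col3a1, Lum and Thy1 were above background on none of the 6 arrays. The dendritic cell genes Cd209a, Flt3 and Xcr1 and the neutrophil genes Elane, Ltf, Mmp8, Mpo and Retnlg were above background on none of them either. Other members of the same lists were above background on all 6 arrays. They were Itgae and Itgax (dendritic cell), S100a8 and S100a9 (neutrophil), Cd79b (B cell), and Dcn and Lox (fibroblast). So were Hdc of the mast cell and basophil list, Pf4 of the megakaryocyte and erythroid list and Vwf of the endothelial list. None of the genes tested from the 9 marker lists was called. Summed signals of all T and NK cell markers were 559 to 618 with HDL and 708 to 776 with PBS, of which Prf1 alone was above background on all 6 arrays, and those of the fibroblast markers were 436 to 467 and 378 to 407. The part of these shifts in the results below was not tested. In bulk RNA, fewer cells of a type and less RNA per cell cannot be told apart.

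Some genes of fatty acid desaturation, fatty acid synthesis, cholesterol synthesis and mitosis were called lower in HDL-treated cells, while some cytokine, chemokine, growth factor and protease genes were called higher. Of 9795 genes tested, 186 (1.90%) were called at an adjusted p under 0.05 in limma with Benjamini-Hochberg adjustment, 78 (0.796%) higher and 108 (1.10%) lower. At an unadjusted p under 0.05 there were 1750. The median log2 fold change was 0.69 among the genes called higher and -0.65 among those called lower, and 11 and 9 genes moved at least 2-fold. After median scaling in place of quantile normalization, 72 were higher and 55 lower. The count was 40 without PBS array 7, 36 without array 8 and 87 without array 9. It was 67, 88 and 56 without HDL arrays 16, 17 and 18, and 88 without array 3 of the PBS group that had no LPS. The values of the 6 arrays did not overlap between the groups in 26.0% of genes, 12.1% higher and 13.8% lower with HDL.

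**Figure D1:**
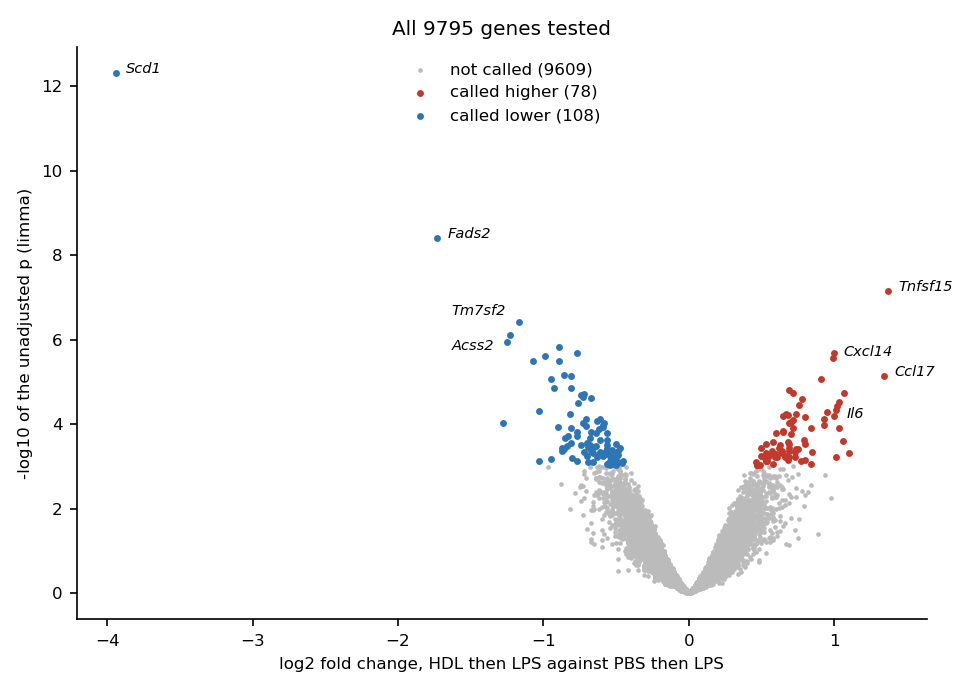
Each point is 1 of the 9795 genes tested, placed by its log2 fold change between the HDL and PBS groups under LPS (x axis) and by -log10 of its unadjusted limma p (y axis). The 108 genes called lower (blue) include Scd1, far to the left at -3.94, and the 78 called higher (red) reach 1.37 at Tnfsf15.

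Among the called genes, the largest changes were those of Scd1 and Fads2, both in the lipid lists. Of 41 genes tested in the 4 lists for desaturation, fatty acid synthesis and both stages of cholesterol synthesis, 15 were called lower and 0 higher, where 1.10% of all genes were called lower. In the same lists 38 of 41 genes had a fold change below 0, against 4956 of 9795 genes overall. The median was -0.47 over the 41 genes and -0.00 over all genes. Of the 15 calls, 6 held whichever of the 12 arrays was left out (Scd1, Fads2, Acss2, Tm7sf2, Fdps and Lss). The number called in these lists fell to 8 without PBS array 7, 8 or 9 or HDL array 17. These lists were chosen with the behaviour of Scd1, Fads2 and other members in these data already known, so their counts are a description.

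**Figure D2:**
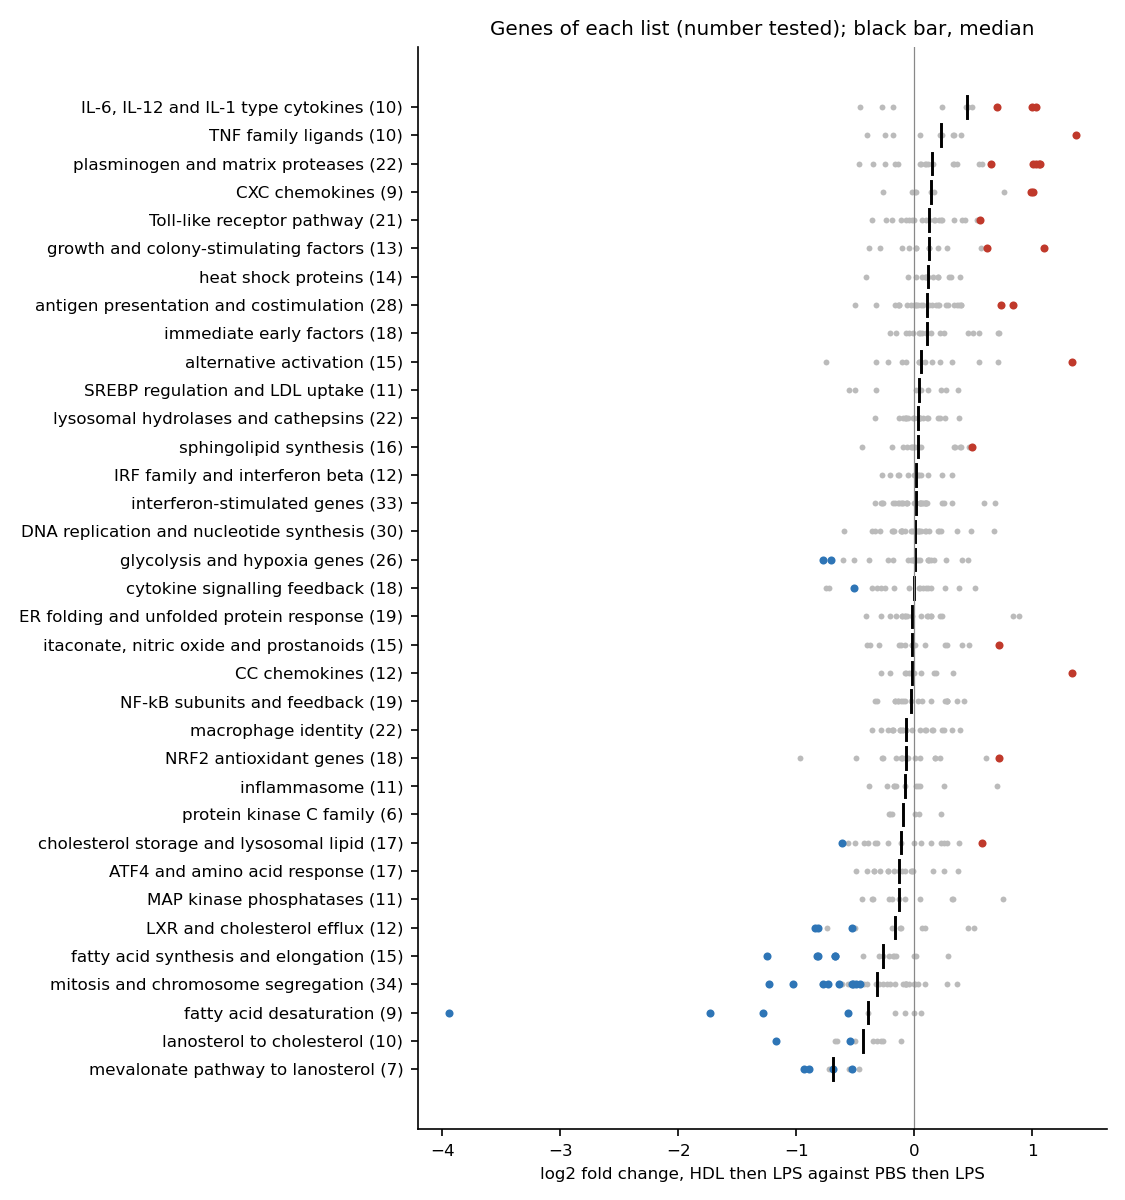
Each dot is a gene of the list named on the y axis, placed by its log2 fold change between HDL and PBS under LPS (x axis). Red dots were called higher, blue dots lower and grey dots neither. Black bars are list medians, which run from -0.69 for the mevalonate pathway to 0.45 for the IL-6, IL-12 and IL-1 type cytokines.

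Promoters of the lowered synthesis genes are shown because these genes moved together. The RefSeq promoter table (GRCm38.p6, 250 bases before to 50 after the gene's start) held 10 of the 15 called genes. The 3 printed are those with an entry whose call held in every omission of an array and under every other alternative. Lss has an entry and held in the omissions, but lost its call when the probes of a gene were averaged (adjusted p = 0.149). Capitals mark the CCAAT box, the site of the factor NF-Y, read on either strand as CCAAT or ATTGG.
Fads2 (chr19:10101454-10101753, minus strand): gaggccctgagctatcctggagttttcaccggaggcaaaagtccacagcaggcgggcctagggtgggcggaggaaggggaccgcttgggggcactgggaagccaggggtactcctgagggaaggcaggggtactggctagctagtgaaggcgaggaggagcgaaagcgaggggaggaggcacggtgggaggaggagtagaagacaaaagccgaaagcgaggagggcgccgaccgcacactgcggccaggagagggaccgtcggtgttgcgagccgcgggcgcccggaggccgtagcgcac
Acss2 (chr2:155517793-155518092, plus strand): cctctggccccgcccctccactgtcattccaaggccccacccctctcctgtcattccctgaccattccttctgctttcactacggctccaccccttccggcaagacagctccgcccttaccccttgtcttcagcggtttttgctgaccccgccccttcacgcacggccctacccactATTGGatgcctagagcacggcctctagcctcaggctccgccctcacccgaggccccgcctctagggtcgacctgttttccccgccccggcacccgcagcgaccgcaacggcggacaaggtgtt
Tm7sf2 (chr19:6067801-6068100, minus strand): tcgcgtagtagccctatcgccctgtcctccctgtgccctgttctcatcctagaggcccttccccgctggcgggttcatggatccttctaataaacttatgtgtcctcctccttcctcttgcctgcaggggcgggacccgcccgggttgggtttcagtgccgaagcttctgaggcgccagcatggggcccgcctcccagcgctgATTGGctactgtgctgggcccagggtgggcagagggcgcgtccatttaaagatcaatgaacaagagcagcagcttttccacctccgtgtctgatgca
A CCAAT box was present in 7 of the 10 promoters, against 38.9% of the 7997 promoters of tested genes and 37.9% of all 27025 promoters in the table. The sterol element TCACNCCAC was found in 0 of the 10 and in 0.95% of the promoters of tested genes, and TCACNTGA, an E-box form, in 0 of the 10 and in 4.4%. These 3 patterns were searched on both strands, and the longer ones both begin with TCAC. Sites spelled otherwise were not counted. With shares this low among tested genes, 0 of 10 does not show that such sites are lacking.

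Desaturases put double bonds into fatty acids, and 4 of 9 genes tested in their list, which also holds the amide hydrolase Faah, were called lower and 0 higher (list median -0.39). Over all genes, 1.10% were called lower. Scd1, the stearoyl-CoA desaturase of most tissues, read 10.10, 10.46 and 10.40 on the PBS arrays and 6.48, 6.47 and 6.17 on the HDL arrays, in normalized log2 signal. Every HDL array lay more than 3 log2 units below every PBS array (log2 fold change -3.94 ± 0.16 SE, adjusted p = 4.82e-09). Fads2, which starts the synthesis of long polyunsaturated fatty acids, read 7.98, 7.78 and 7.73 with PBS and 6.13, 6.10 and 6.08 with HDL. The HDL arrays agreed within 0.05 and all lay below the PBS arrays (-1.73 ± 0.14, 1.94e-05), while a dimmer probe of the gene gave -0.57 ± 0.17 and no call. Scd2, the desaturase relative first known from brain, read 7.35, 7.11 and 7.60 against 5.93, 5.82 and 6.47 (-1.28 ± 0.24, 0.0177). Fads1, which acts after Fads2 in the same pathway, read 11.52, 11.69 and 11.82 against 11.21, 11.09 and 11.05 (-0.56 ± 0.11, 0.0303). Without PBS array 7 the adjusted p of Scd2 was 0.0738, and without PBS array 8 that of Fads1 was 0.106. The other probe of Fads1 gave 0.17 and was above background on none of the 6 arrays. Scd4, Faah, Fads3, Fads6 and Degs1 were not called, at -0.39 to 0.06.

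In fatty acid synthesis and elongation, 5 of 15 genes were called lower and 0 higher (median -0.26), where 1.10% of all genes were called lower. Acss2, which makes acetyl-CoA from acetate, read 8.78, 8.73 and 8.71 with PBS and 7.73, 7.46 and 7.28 with HDL (-1.25 ± 0.15, adjusted p = 0.00182). Elovl6, which lengthens palmitate, read 5.80, 6.24 and 6.31 against 5.49, 5.22 and 5.21 (-0.81 ± 0.15, 0.0201) and was above background on 1 of 3 HDL arrays, so its fold is uncertain. Acsl3, a fatty acid activating enzyme, fell by 0.82 ± 0.14 on the log2 scale, Slc25a1, the mitochondrial citrate carrier, by 0.67 ± 0.11, and Mid1ip1, which promotes assembly of acetyl-CoA carboxylase, by 0.67 ± 0.15. No HDL array of these 5 genes reached the lowest PBS array. Acss2 alone held its call in every omission. The highest adjusted p in an omission was 0.10 for Elovl6 and 0.0695 for Acsl3 without PBS array 8, and 0.0506 for Slc25a1 and 0.152 for Mid1ip1 without PBS array 7. Fasn, the fatty acid synthase, was near background on all 6 arrays (5.03 to 5.47 with PBS, 4.91 to 5.26 with HDL) and not called. Acly, which makes acetyl-CoA from citrate, gave -0.26 ± 0.14 and was not called.

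All 17 tested genes of cholesterol synthesis had a fold change below 0, and 6 were called lower and 0 higher. In the first stage, from mevalonate to lanosterol, 4 of 7 were called lower (median -0.69), where 1.10% of all genes were. The 3 HDL arrays lay below the 3 PBS arrays for all 7, against 13.8% of all genes. Fdps, which makes farnesyl diphosphate, read 12.81, 12.68 and 12.80 with PBS and 11.96, 11.67 and 12.01 with HDL (-0.89 ± 0.11, adjusted p = 0.00205). A second probe of Fdps was also called, at -1.12 ± 0.11. Lss, the lanosterol synthase, read 10.30, 10.17 and 10.34 against 9.50, 9.13 and 9.39 (-0.93 ± 0.14, 0.00677), but a second probe, above background on all 6 arrays, gave 0.30 ± 0.13. Mvd, which completes the isoprenoid unit, read 9.67, 9.41 and 9.67 against 8.94, 8.59 and 9.17 (-0.69 ± 0.15, 0.0362). Sqle, the squalene epoxidase, read 11.52, 11.36 and 11.63 against 11.11, 10.84 and 10.98 (-0.53 ± 0.12, 0.0459). The kinases Mvk and Pmvk and the isomerase Idi1 were not called, at -0.72 ± 0.18, -0.47 ± 0.12 and -0.55 ± 0.20.

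In the second stage, from lanosterol to cholesterol, 2 of 10 genes were called lower (median -0.43), where 1.10% of all genes were. The groups did not overlap downwards for 7 of 10, against 13.8% of all genes. Tm7sf2, a sterol reductase, read 7.77, 7.66 and 7.82 with PBS and 6.40, 6.76 and 6.57 with HDL (-1.17 ± 0.13, adjusted p = 0.000926). Cyp51, the lanosterol demethylase, read 10.66, 10.72 and 10.71 against 10.17, 10.11 and 10.19 (-0.54 ± 0.12, 0.0393). The other 8 lay between -0.67 for Dhcr7 and -0.11 for Lbr and were not called. Without PBS array 7 the adjusted p was 0.146 for Mvd and 0.171 for Sqle, and without PBS array 8 it was 0.130 for Cyp51.

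**Figure D3:**
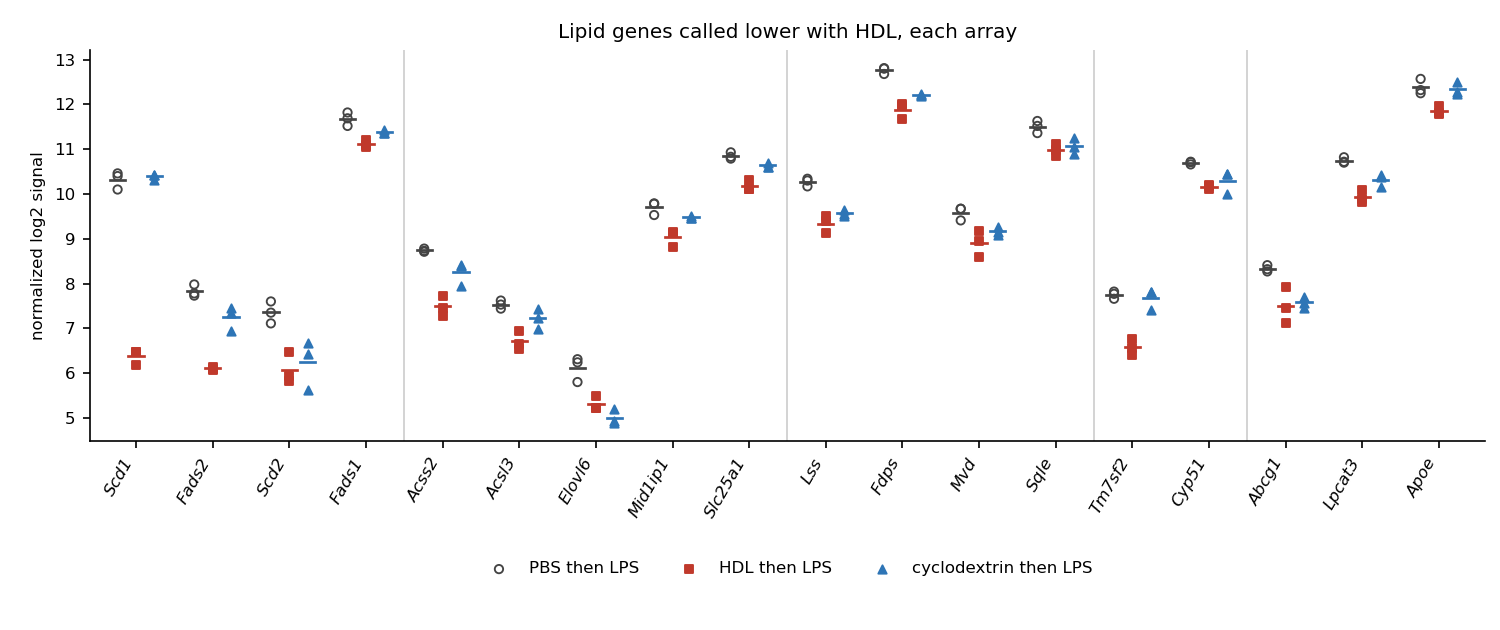
Normalized log2 signal (y axis) of the 18 lipid genes called lower in 5 lists, with 3 arrays per group as points and a bar at the group mean. Grey lines separate desaturases, fatty acid synthesis, mevalonate to lanosterol, lanosterol to cholesterol, and LXR and efflux genes. HDL arrays (red squares) lie below all PBS arrays (open circles) for every gene, and for Scd1 the cyclodextrin arrays (blue triangles) lie at 10.32 to 10.43, beside PBS.

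The regulators of these pathways were not called. Of 11 genes for SREBP control and LDL uptake, 0 were called in either direction (median 0.04), where 1.90% of all genes were called. Srebf2, which encodes the SREBP of cholesterol synthesis, read 9.59, 9.31 and 9.53 with PBS and 9.48, 9.67 and 9.34 with HDL (0.02 ± 0.14, adjusted p = 0.961). Srebf1, the SREBP of fatty acid synthesis, gave -0.32 ± 0.17 (0.330). Insig1, which holds SREBPs in the endoplasmic reticulum and is itself an SREBP target, read 8.56, 8.71 and 8.94 against 8.04, 8.26 and 8.43 without overlap, but its p did not pass (-0.50 ± 0.15, 0.105).

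Among 12 genes of LXR and cholesterol efflux, 3 were called lower and 0 higher (median -0.16), where 1.10% of all genes were called lower. The count of 0 higher depended on the processing: 2 were higher and 4 lower both without background correction and with the authors' processed values, and 2 were higher and 3 lower both with an offset of 50 and with an intensity trend in the prior. Nr1h3 and Ch25h passed in each of those 4 alternatives. The first 2 are close to each other, with 283 and 282 calls over all genes, so the 4 are not independent checks. Lpcat3, which places polyunsaturated chains in phospholipids, read 10.82, 10.72 and 10.70 with PBS and 9.83, 9.89 and 10.09 with HDL (-0.81 ± 0.12, adjusted p = 0.00445), and its second probe was called too (-0.84 ± 0.13). Abcg1, which exports cholesterol to HDL, read 8.32, 8.27 and 8.41 against 7.45, 7.12 and 7.92 (-0.84 ± 0.18, 0.0350). Apoe, the secreted apolipoprotein, read 12.57, 12.32 and 12.25 against 11.81, 11.78 and 11.96 (-0.53 ± 0.12, 0.0393). Other members stood apart in the opposite direction without passing: Nr1h3, which encodes LXR alpha, gave 0.51 ± 0.13 (0.0589), and Ch25h, which makes 25-hydroxycholesterol, 0.46 ± 0.13 (0.0969). Scarb1, the HDL receptor, read 7.05, 7.15 and 7.09 with PBS and 6.13, 5.94 and 6.99 with HDL (-0.74 ± 0.23, 0.116), so HDL array 18 lay close to the PBS arrays. Without PBS array 7 the adjusted p was 0.117 for Abcg1 and 0.179 for Apoe, while Lpcat3 kept its call in every omission. Abca1 was not analysed here.

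Of 17 genes for cholesterol storage and lysosomal lipid, 1 was called higher and 1 lower (median -0.11). Over all genes, 0.796% were called higher and 1.10% lower. Plin3, a lipid droplet coat protein, fell by 0.61 ± 0.11 on the log2 scale (adjusted p = 0.0166). Dgat2, which makes triglyceride, read 5.17, 5.39 and 5.01 with PBS, where 1 of 3 arrays was above background, and 5.79, 5.81 and 5.69 with HDL (0.58 ± 0.12, 0.0322). Plin2, the main droplet coat protein of macrophages, gave -0.00 and was not called. The ceramide synthase Cers6 was the only called gene of 16 in sphingolipid synthesis (0.49 ± 0.12, 0.0491). Without PBS array 7 these calls were lost, at 0.0843 for Plin3, 0.120 for Dgat2 and 0.210 for Cers6.

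In the 4 cytokine and chemokine lists, 7 of 41 tested genes were called higher and 0 lower, where 0.796% of all genes were called higher. Tnfsf15, a TNF family ligand also known as TL1A, read 6.28, 6.16 and 6.16 with PBS and 7.29, 7.68 and 7.74 with HDL (1.37 ± 0.13, adjusted p = 0.000226). It was the highest fold change of all 9795 genes and the only call among 10 TNF family ligands. Il6, a fever and acute-phase cytokine, read 9.80, 10.00 and 9.93 against 11.43, 10.47 and 10.82 (1.00 ± 0.18, 0.0157). All HDL arrays lay above the PBS arrays, with HDL array 16 highest. Il12a, the p35 subunit of interleukin 12, read 5.13, 5.33 and 5.18 with PBS, with 1 of 3 arrays above background, and 6.28, 6.55 and 5.90 with HDL, all above it (1.03 ± 0.17, 0.0101). Il1a, an alarm cytokine, read 12.73, 12.53 and 12.36 against 13.19, 13.32 and 13.20 (0.70 ± 0.13, 0.0177), and its second probe was called as well (0.89 ± 0.13). The other 7 genes of the IL-6, IL-12 and IL-1 list ran from -0.46 for Il33 to 0.49 for Il1b, and the list median was 0.45.

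The chemokines called were Ccl17, Cxcl2 and Cxcl14. Ccl17, which attracts CCR4-bearing T cells, read 6.94, 6.99 and 6.55 with PBS and 8.11, 8.14 and 8.24 with HDL (1.34 ± 0.19, adjusted p = 0.00445) and was the only call among 12 CC chemokines (median -0.02). Cxcl14 read 5.88, 5.90 and 5.84 against 6.91, 6.91 and 6.77 (0.99 ± 0.13, 0.00238). Cxcl2, which attracts neutrophils, read 10.44, 10.58 and 10.36 against 11.67, 11.65 and 11.10 (1.01 ± 0.23, 0.0412). Its relative Cxcl1 gave 0.76 ± 0.28 and was not called. The CC chemokines Ccl2, Ccl3, Ccl4 and Ccl5 lay between -0.08 and 0.19. Tnfsf15, Ccl17 and Cxcl14 kept their calls in every omission. A second probe of Cxcl14 gave 0.60 ± 0.21 and one of Cxcl2 0.76 ± 0.28. Both were above background on all 6 arrays, and neither was called. Without PBS array 7 the adjusted p was 0.0774 for Il6, 0.0506 for Il12a and 0.152 for Cxcl2, and without PBS array 8 it was 0.0739 for Il1a.

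Several of the best known LPS response genes were not called. Tnf read 14.00, 13.91 and 13.89 with PBS and 14.33, 14.17 and 14.32 with HDL (0.34 ± 0.16, adjusted p = 0.275). Il1b read 14.35, 14.28 and 14.07 against 14.78, 14.74 and 14.63 (0.49 ± 0.14, 0.0995). For both, all 3 HDL arrays lay above all 3 PBS arrays, as 12.1% of genes did. Il10, the deactivating cytokine, gave -0.28 ± 0.16 (0.369), Nos2, the inducible nitric oxide synthase, 0.41 ± 0.18 (0.236), Ptgs2, the inducible cyclooxygenase, 0.47 ± 0.22 (0.289) and Atf3, a repressor of cytokine genes, 0.50 ± 0.16 (0.116). Il12b was not analysed here. Of 33 interferon-stimulated genes, 0 were called (median 0.02). Ifnb1 gave 0.32 ± 0.15 (0.299) and Irf1 0.03 ± 0.12 (0.919). The other 4 probes of Irf1, all above background on the 6 arrays, gave 0.32 ± 0.11, 0.49 ± 0.15, 0.25 ± 0.13 and 0.34 ± 0.13, and none was called. Cxcl10 lay at 15.18 to 15.35 with PBS and 15.26 to 15.33 with HDL, and was not called. In the NF-kB, immediate early factor and MAP kinase phosphatase lists, 0 of 19, 0 of 18 and 0 of 11 genes were called. Over all genes, 1.90% were called.

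In the growth factor and protease lists, 2 of 13 and 5 of 22 genes were called higher and 0 lower. Over all genes, 0.796% were called higher. The protease list also holds the inhibitor Serpinb1a, which is among its called genes. Hbegf, an EGF receptor ligand, read 8.04, 7.69 and 7.71 with PBS and 8.49, 9.15 and 9.09 with HDL (1.10 ± 0.24, adjusted p = 0.0393). Hgf, the hepatocyte growth factor, read 6.65, 6.64 and 6.63 against 7.36, 7.40 and 7.03 (0.62 ± 0.13, 0.0370). Htra4, a serine protease, read 5.95, 6.11 and 6.08 against 7.02, 6.94 and 7.38 (1.07 ± 0.17, 0.00784). Plau, the urokinase plasminogen activator, read 9.41, 9.99 and 10.22 against 11.02, 11.01 and 10.78 (1.06 ± 0.22, 0.0319), and PBS array 7 was the lowest. PBS array 7 was also lowest for the gelatinase Mmp2, at 4.94 against 5.70 and 5.83 on the other PBS arrays, of which 2 of 3 were above background, and the HDL arrays read 6.62, 6.52 and 6.44 (1.03 ± 0.20, 0.0201). Serpinb1a, an inhibitor of neutrophil proteases, gave 1.01 ± 0.17 (0.0136) and the aggrecanase Adamts4 0.65 ± 0.12 (0.0157). Of these 7 genes Htra4 alone held its call in every omission. The adjusted p rose to 0.138 for Hbegf and 0.0679 for Serpinb1a without PBS array 8. It rose to 0.132 for Plau, 0.126 for Hgf and 0.0782 for Adamts4 without PBS array 7, and to 0.0724 for Mmp2 without HDL array 16.

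**Figure D4:**
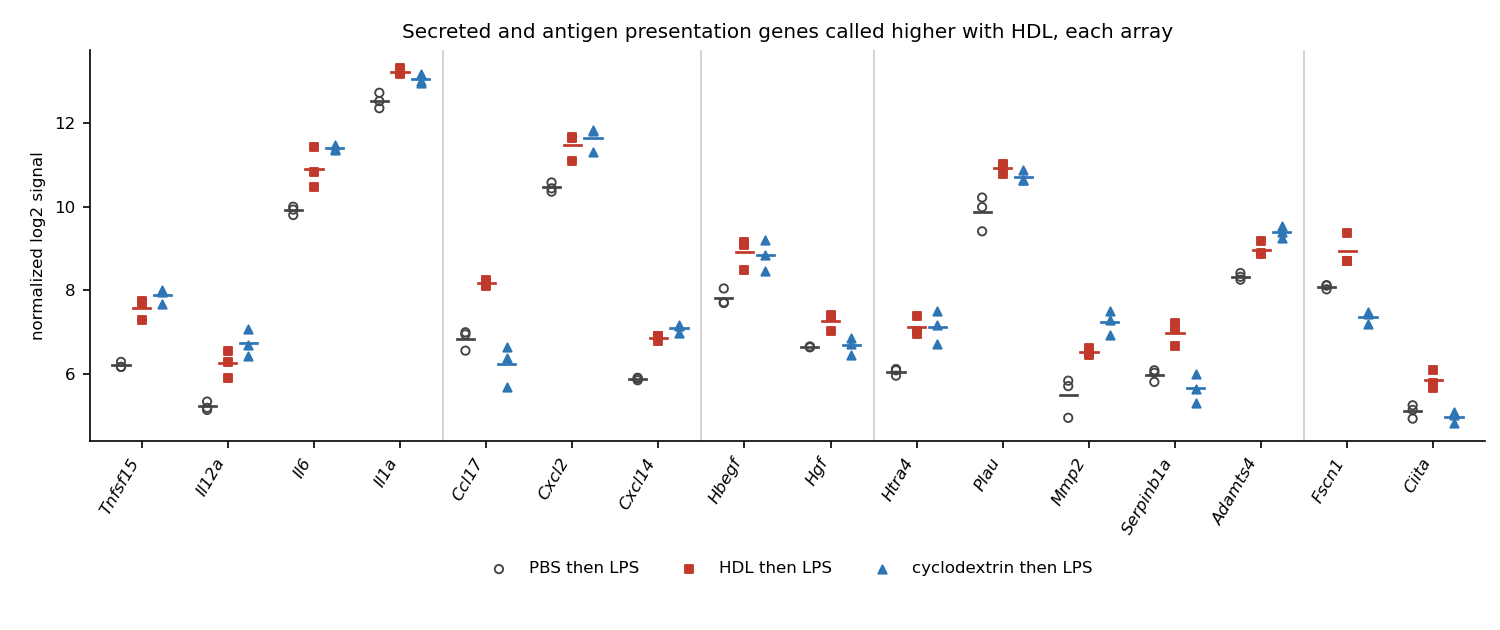
Normalized log2 signal (y axis) of the 16 called genes of the cytokine, chemokine, growth factor, protease and antigen presentation lists, with 3 arrays per group as points and a bar at the mean. HDL arrays (red squares) lie above all PBS arrays (open circles) for each gene. The cyclodextrin arrays (blue triangles) of Ccl17 read 5.67 to 6.64 and its HDL arrays 8.11 to 8.24.

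Of 28 genes for antigen presentation and costimulation, 2 were called higher and 0 lower (median 0.11). Over all genes, 0.796% were called higher and 1.10% lower. Fscn1, an actin-bundling protein typical of mature dendritic cells, read 8.12, 8.02 and 8.11 with PBS and 8.70, 8.70 and 9.38 with HDL (0.84 ± 0.16, adjusted p = 0.0201). Ciita, the switch for MHC class II genes, was above background on 0 of 3 PBS arrays and on all 3 HDL arrays, and was at least 1.48-fold higher (adjusted p = 0.0150). The class II genes H2-Aa, H2-Ab1 and H2-Eb1 gave -0.16, 0.06 and 0.03 and were not called. In 5 other lists, 6 further genes were called. Tlr13, a receptor for bacterial ribosomal RNA, was higher (0.56 ± 0.12), as were the arginine transporter Slc7a2 (0.72 ± 0.11) and the glutathione transferase Gsta3 (0.72 ± 0.13). Socs1, a brake on cytokine receptors, was lower (-0.51 ± 0.12), and so were Ndrg1 (-0.77 ± 0.10) and Aldoc (-0.70 ± 0.15) in the glycolysis and hypoxia list of 26. Slc7a2 and Ndrg1 held their calls in every omission. A second probe of Ndrg1 gave -0.29 ± 0.13, and other probes of Slc7a2 gave 0.36 ± 0.15 and 0.24 ± 0.10. That of Tlr13 gave 0.04 ± 0.12. All of these were above background on the 6 arrays, and none was called. The dimmer probe of Aldoc, above background on 3 of 6 arrays, gave -0.24 ± 0.15 and was not called either. The adjusted p reached 0.0902 for Fscn1, 0.0565 for Ciita, 0.177 for Socs1 and 0.0892 for Gsta3 without PBS array 8, and 0.159 for Tlr13 and 0.145 for Aldoc without PBS array 7. No gene was called in the lists for macrophage identity, lysosomal hydrolases, heat shock proteins, the ATF4 response, endoplasmic reticulum folding, protein kinase C, IRF factors or the inflammasome, with medians of -0.13 to 0.12.

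Of 34 genes of mitosis and chromosome segregation, 9 were called lower after HDL and 0 higher (median -0.31), where 1.10% of all genes were called lower. In this list 29 of 34 had a fold change below 0, against 4956 of 9795 genes overall. The 3 HDL arrays lay below the 3 PBS arrays for 18 of the 34 genes, against 13.8% of all genes. Kif2c, a kinesin that trims microtubules at centromeres, read 7.19, 7.39 and 7.07 with PBS and 6.29, 6.22 and 6.04 with HDL (-1.03 ± 0.18, adjusted p = 0.0139). Plk1, the polo-like kinase of mitotic entry, read 8.80, 8.61 and 8.36 against 7.85, 7.95 and 7.67 (-0.77 ± 0.15, 0.0261). Kif23, a motor of cytokinesis, read 9.01, 9.02 and 8.99 against 8.27, 8.19 and 8.37 (-0.73 ± 0.14, 0.0177). Troap, a spindle protein, was by its brighter probe above background on 0 of 3 HDL arrays and at least 2.08-fold lower (adjusted p = 0.00149). Its second probe was above background on all 6 arrays and gave 0.09 ± 0.13, so the bound holds for the brighter probe alone. Aurkb and Bub1b, a kinase of the chromosomal passenger complex and a spindle checkpoint kinase, fell by 0.49 ± 0.11 and 0.52 ± 0.12, and Kif22, Kif18b and Cenpn by 0.64 ± 0.14, 0.53 ± 0.12 and 0.46 ± 0.11. Kif18b was above background on 1 of 3 HDL arrays. Kif23, Kif18b and Troap each had another probe on the other side of 0. That of Kif23 was above background on 0 of the 6 arrays and that of Kif18b on 2. Further probes of Kif23, above background on all 6 arrays, gave -0.11 ± 0.11 and -0.41 ± 0.17 and were not called.

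Cdk1, Birc5, Aurka and Nusap1, members of the same list, gave -0.08, 0.01, -0.09 and 0.03 and were not called. In the list for DNA replication and nucleotide synthesis, 0 of 30 genes were called, where 1.90% of all genes were, and the median was 0.01. Of the 9 mitotic calls, only that of Troap, whose second probe gave 0.09, held in every omission. Without PBS array 7 or 8, 1 call was left in the list. The highest adjusted p in an omission was 0.0679 for Kif2c without PBS array 8. Without PBS array 7 it was 0.126 for Plk1, 0.0774 for Kif23, 0.148 for Kif22, 0.171 for Kif18b, 0.174 for Aurkb, 0.154 for Bub1b and 0.169 for Cenpn. After median scaling 4 of the 34 genes were called, and 5 with only the 6 arrays in the fit.

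**Figure D5:**
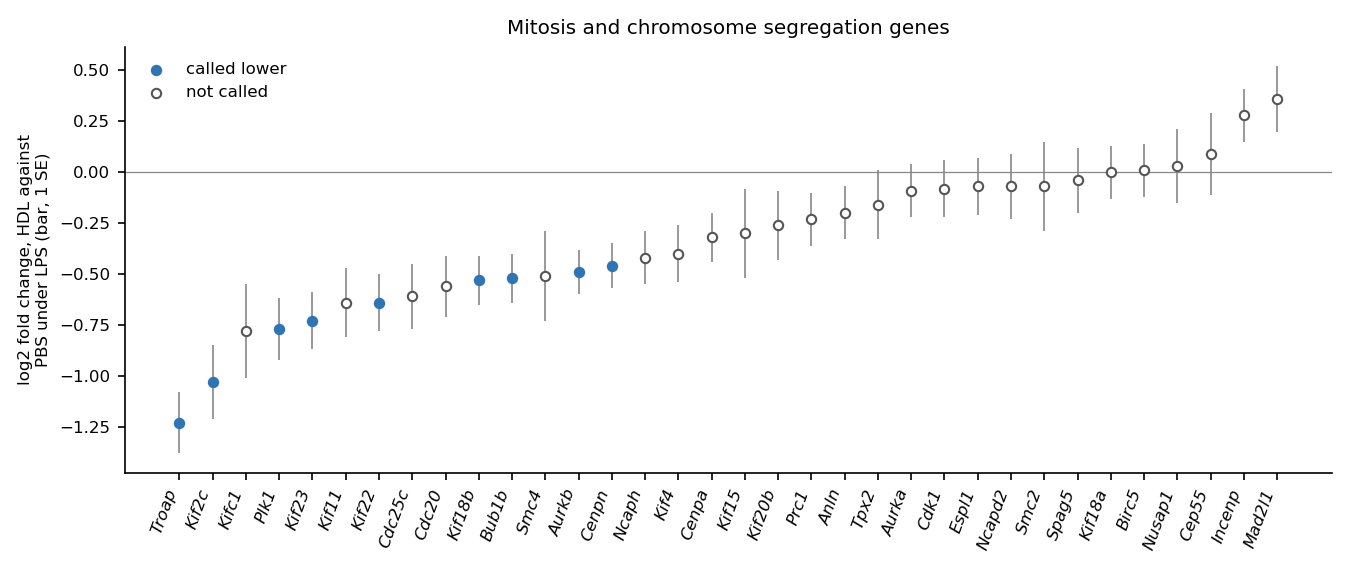
Log2 fold change between HDL and PBS under LPS (y axis, bars of 1 SE) for the 34 tested genes of mitosis and chromosome segregation, in order of size. The 9 called lower (filled) run from Troap at -1.23 to Cenpn at -0.46, and 25 genes (open) were not called.

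Some of the largest calls lay outside the lists. Of the 186 called genes, 134 were in no pathway list. Tgfbi, a secreted matrix adhesion protein, was among the brightest genes at 12.89, 12.94 and 12.77 with PBS and fell to 11.93, 12.08 and 11.63 with HDL (-0.99 ± 0.13, adjusted p = 0.00238), and its second probe was called at -0.97 ± 0.14. Tmem86a, a lysoplasmalogenase, read 8.52, 8.59 and 8.48 against 7.65, 7.59 and 7.69 (-0.89 ± 0.12, 0.00238). Id1, an inhibitor of differentiation factors, fell by 0.85 ± 0.17, Selp, the adhesion molecule P-selectin, by 0.86 ± 0.12 and Urah, a urate pathway enzyme, by 1.07 ± 0.14. Mxd4, a partner of MAX, read 7.62, 7.73 and 7.40 against 6.79, 6.96 and 5.92 (-1.03 ± 0.24, 0.0458). Among the higher genes were Tagap1 (1.00 ± 0.13), Igfbp7, a secreted binding protein of insulin-like growth factors (0.93 ± 0.17), the membrane protein Susd2 (0.91 ± 0.13) and Fzd7, a Wnt receptor (0.85 ± 0.19). The class I gene H2-Q1 was higher (0.95 ± 0.17), but its family holds near-identical genes that a probe may not separate. Susd2 and H2-Q1 were above background on 1 of 3 PBS arrays, and Selp on 2 of 3 HDL arrays, so their folds are uncertain. Tgfbi, Tmem86a, Selp, Urah, Tagap1 and Susd2 kept their calls in every omission. The adjusted p rose to 0.135 for Id1, 0.166 for Mxd4 and 0.0543 for H2-Q1 without PBS array 7, to 0.151 for Fzd7 without PBS array 8 and to 0.0682 for Igfbp7 without HDL array 16.

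The remaining genes named by size of change were, among those called higher, 4933430I17Rik (1.02), Tkfc (0.84), Mbtd1 (0.80), Wdr20rt (0.80), Rffl (0.80) and Rasgef1b (0.79). Moap1 and Car14 were above background on 0 of 3 PBS arrays and were at least 1.42-fold and 1.20-fold higher. Among those called lower were 1700003F12Rik (-0.95), Atg9b (-0.95), Neurl2 (-0.90), Zbtb32 (-0.87), Kmt5c (-0.87), H2ac21 (-0.86) and Ttll5 (-0.83). Atg9b held its call in every omission, and the other 14 of these genes lost it in at least 1. A second probe of Atg9b gave 0.17 and one of Mbtd1 -0.18. Of the 186 called genes, 67 had several probes, all of which were called for 7 genes and lay on the same side of 0 for 51.

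Cyclodextrin, a ring of sugars that also draws cholesterol out of cells, was set directly against HDL under LPS. The HDL contact was 24 h and the cyclodextrin contact 4 h, so contact time and compound cannot be told apart. Of 9795 genes, 271 (2.77%) were called, 121 higher (1.24%) and 150 lower (1.53%) with cyclodextrin than with HDL. After median scaling, 59 were higher and 623 lower. The count was 130, 208 and 126 without HDL arrays 16, 17 and 18 and 173, 130 and 140 without cyclodextrin arrays 22, 23 and 24. The largest difference was in Scd1, at 10.43, 10.32 and 10.43 on the cyclodextrin arrays against 6.48, 6.47 and 6.17 with HDL (cyclodextrin minus HDL, 4.02 ± 0.16, adjusted p = 3.72e-09). Fads2 (1.14 ± 0.14, 0.000583), Tm7sf2 (1.11 ± 0.13, 0.000583) and Acss2 (0.76 ± 0.15, 0.0180) were also higher with cyclodextrin than with HDL, as were Slc25a1 (0.45 ± 0.11, 0.0407) and Apoe (0.49 ± 0.12, 0.0426). For Scd2 (0.17 ± 0.24), Sqle (0.10 ± 0.12), Cyp51 (0.14 ± 0.12), Lss (0.23 ± 0.14) and Abcg1 (0.08 ± 0.18) the difference did not pass, which does not show that the treatments act alike.

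Ccl17 was lower with cyclodextrin than with HDL, at 6.37, 6.64 and 5.67 (-1.94 ± 0.19, adjusted p = 0.000226). So were Fscn1 (-1.55 ± 0.16, 0.000258), Serpinb1a (-1.33 ± 0.17, 0.00139), Ciita (-0.87 ± 0.13, 0.00325), Tlr13 (-0.71 ± 0.12, 0.00941) and Hgf (-0.59 ± 0.13, 0.0322). For Tnfsf15 (0.31 ± 0.13), Il6 (0.51 ± 0.18), Il1a (-0.17 ± 0.13), Hbegf (-0.07 ± 0.24), Htra4 (0.01 ± 0.17) and Plau (-0.22 ± 0.22) the difference did not pass. Cdkn1c, an inhibitor of the cell cycle that HDL did not change to the point of a call (-0.19 ± 0.13), was 2.02 ± 0.13 higher with cyclodextrin than with HDL. The replication genes Top2a, Pclaf and Mcm3 were lower with cyclodextrin than with HDL, by -1.14 ± 0.20, -1.11 ± 0.12 and -1.07 ± 0.18. Other genes among the 10 largest differences each way were, on the higher side, Pdzk1ip1 (1.19, itself called lower after HDL at -0.73), Foxa1 (above background on 0 of 3 HDL arrays), Klk1b11 (1.14), the lipase Mgll (1.12), Arfgef3 (1.09) and the glutathione synthesis gene Gclm (1.08). On the lower side they were Csta2 (-1.23), Cstdc4 (-1.21), the collagen gene Col4a5 (-1.20, itself called higher after HDL at 0.70) and Ctnnd2 (-1.16). Csta2 and Cstdc4 belong to a family of near copies. With the share of probes above background as a covariate, which was 33.3% to 35.2% on the cyclodextrin arrays, 38 genes were called in place of 271.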

How the data were processed

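RNA was measured on 12 Illumina bead arrays, and the probe signals were exported with GenomeStudio, per the submitters' processing notes. Per the file headers, the authors deposited a non-normalized signal and a detection p-value for each probe, and separately their own processed values. How those were normalized is not given in the sources used. Most deposited signals had lost their decimal mark. Of 543372 values, 2.004% kept it, 75.506% were placed from the detection p-value, 1.57% from the number of digits and 20.9% from the curve that ties signal to processed value on each array. Of 7515 values hidden and placed again, 0 were wrong, though this test was in view while the rule was being adjusted. The planned design assumed stored intensities, and the planned test was run on the rebuilt ones.

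Background correction, quantile normalization and the log2 step were done by neqc of limma 3.58.1 (R 4.3.3), given the detection p-values and adding 16 as the offset. A fold of a dim gene is understated by the offset. Names came from the platform annotation: of 45281 probes, 34885 had 1 symbol, 18 several and 10378 none. A gene was its passing probe with the highest mean (9795 genes). One limma model over the 4 groups gave all gene p-values (two-sided, with 8 degrees of freedom from residuals and 6.06 from the prior), adjusted by the Benjamini-Hochberg method. "Called" means an adjusted p under 0.05. A fold against a group with no array above background is a lower bound against the lowest detected signal. Depth is not defined for arrays, and their number limits the precision.

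The genes named were the 25 largest calls each way, called list members, 25 key genes (5 not analysed here) and the 10 largest differences each way between cyclodextrin and HDL. Other genes were picked after their values were seen. The arrays, gene lists and tests were chosen with earlier results of these data known. All 12 arrays were kept, and the fit was tested on simulated data. Rebuilding and figures used Python 3.11.15, numpy 2.4.6, pandas 2.3.3 and matplotlib 3.10.9. The alternatives tried were the normalization, background correction, offset, filter, arrays in the fit, weights, prior, probe choice, a covariate, the authors' processed values and each array left out.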

Additional observations from a re-analysis of the deposited data

How the results depend on the processing

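No called gene named by the rule changed direction under the 14 alternatives and 12 omissions of an array. Of 80 such genes, 20 were called in all of them and 58 lost their call in at least 1 omission. The 186 calls became 283 without background correction, 282 with the authors' processed values, 102 with no detection filter, 80 with only the 6 arrays of both groups in the fit and 575 with array weights, and 36 to 223 when 1 array was left out. The 52 called list members became 33 with the 6 arrays and 98 with array weights, and 19 to 61 in the omissions. The 271 differences between cyclodextrin and HDL became 682 after median scaling (59 higher, 623 lower), 424 with array weights and 38 when the detected share entered as a covariate, and 126 to 368 in the omissions. The difference in that share, -0.699 percentage points, turned to 0.311 at a detection p under 0.01 and ran from -0.833 to -0.568 in the omissions. The causes of these shifts were not tested. The 17 cholesterol synthesis genes stayed below 0 in each of the 14 alternatives. Of 910 list medians, 99 moved by more than the spread between arrays, among them that of the desaturases, -0.56 to -0.19. The median of all genes lay between -0.01 and 0.03. No paired analysis was possible because the groups share no replicate numbers, and slides could not be used as a block because the files name none. Genes near background limit what a fold can show.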

Other observations

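Histone genes were counted after several of them appeared among the calls, so the choice of this family rests on their values and no test is given. Of 49 histone genes tested, 6 were called lower after HDL and 0 higher, where 1.10% of all genes were called lower. A fold change below 0 was found for 42 of the 49, against 4956 of all 9795 genes, and the median was -0.40. The groups did not overlap downwards for 29 of them and upwards for 1, against 13.8% and 12.1% of all genes. H2ac13 read 12.81, 12.75 and 12.43 on the PBS arrays and 12.08, 12.22 and 12.01 on the HDL arrays, and H2ac20 12.82, 12.77 and 12.49 against 12.18, 12.15 and 12.16. The variant gene H2ax, whose product marks DNA breaks, read 8.03, 7.82 and 7.71 against 7.12, 7.07 and 6.93. H2ac21, H4c1 and Macroh2a1 were the other 3, and Macroh2a1 had another probe on the other side of 0. Copies of a histone gene are nearly identical, so 1 probe can report several of them.

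Further lipid genes outside the lists were called lower, named here after their values were seen. Pcyt2, which supplies phosphatidylethanolamine synthesis, read 9.47, 9.50 and 9.48 with PBS and 8.76, 8.52 and 8.74 with HDL (-0.81 ± 0.12, limma adjusted p = 0.00677). Aacs, which activates acetoacetate for lipid synthesis, fell by 0.62 ± 0.12 and the acyl-CoA synthetase Slc27a3 by 0.74 ± 0.12. Higher after HDL were the ribosome assembly genes Nop58 (0.72 ± 0.14), Npm1 (0.69 ± 0.13) and Bms1 (0.69 ± 0.16), the adhesion molecule Vcam1 (0.76 ± 0.13), the integrin Itgal (0.69 ± 0.15), Apom, whose protein is carried on HDL (0.53 ± 0.12), and the ganglioside synthase St3gal5 (0.53 ± 0.12). When all 18364 passing probes were tested together, 158 (0.860%) were called, of which 27 carried no gene name, 7 higher and 20 lower. The lowest of these nameless probes gave -2.53 ± 0.12 and -2.26 ± 0.13, both below Fads2 at -1.73. Which genes they report is not known here.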
